A study of Homo sapiens with 6 samples.

Results

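DNA replication licensing and fork genes code for the proteins that mark origins, load and switch on the replicative helicase, and copy the DNA behind it. RNA-seq values of 41 such genes were compared between K562 cells depleted of lncRNA-IUR-5 and control cells. The 41 genes were taken by name, from their roles, and each was read from the row of the deposited table that held the most reads over the 6 libraries. All 41 were measured and passed the minimum level for testing, out of 8873 genes tested at their own row with the most reads. K562 is a human cell line from a chronic myeloid leukemia in blast crisis, and it carries the BCR-ABL fusion. The 3 sh-IUR-5 libraries came from K562 cells that stably expressed a short hairpin RNA against lncRNA-IUR-5, which the sample labels call lncRNA-IIRX. The 3 sh-luc libraries came from K562 cells with a hairpin against luciferase, a gene that these cells lack. The labels give no drug treatment, both groups are 1 cell line, and a stable line can differ from its control in more than the hairpin target.

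Before S phase, the origin recognition complex (ORC), CDC6 and CDT1 place the ring of MCM2 to MCM7 on DNA, a step called licensing, and geminin binds CDT1 so that no origin is licensed again in the same cycle. CDC45 and the GINS complex then join the ring and make it an active helicase. Polymerase alpha with primase lays down primers, the RFC complex loads the PCNA clamp, polymerases epsilon and delta extend the strands, FEN1 and LIG1 finish the lagging strand, and replication protein A (RPA) covers single-stranded DNA. Many of these genes are known targets of E2F transcription factors, and their transcripts are known to be higher in dividing than in resting cells.

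The rows of the table are RefSeq protein accessions, so the isoforms of a gene stand apart, and the 41 genes had 138 rows. Reads on the row with the most reads ran from 621 for GINS1 to 47070 for MCM7 over the 6 libraries, while whole libraries held 21023739 to 31481109 reads. Levels below are RPKM (reads per kilobase, scaled to library size) divided by each library's TMM scaling, since RPKM scaled to total reads alone moved the median log2 fold change of all genes tested from -0.01 to 0.20. Fold changes are sh-IUR-5 over sh-luc, and gene positions are those of RefSeq on GRCh38.p14. A gene passed the threshold when edgeR's quasi-likelihood test gave an adjusted p under 0.05 over all 38204 rows tested. Erythroid markers stood at 1 RPKM or more in 12 of 12 cases, with summed levels of 21472 to 24240 in sh-luc and 15158 to 15976 in sh-IUR-5 libraries, and 9 of them passed between the hairpins, 3 higher and 6 lower. Of the T cell, B cell and fibroblast markers, 0 of 12 had a mean of 1 RPKM, and of the monocyte and epithelial markers only LYZ and EPCAM did. The longer library names give libraries 2 and 3 of a group a shared first number, called series 2 here, and library 1 its own, called series 1. Library 1 stood apart in both groups: over rows, its chi-square against libraries 2 and 3 was 3.69 to 6.54 per row, and between libraries 2 and 3 it was 2.24 in sh-luc and 1.74 in sh-IUR-5, where sampling noise alone gives about 1. Nothing in the labels says what a series is, so the p-values measure the spread between these libraries.

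Sequence from just upstream of the start sites is shown for the 4 genes with the largest changes and a promoter window in the RefSeq-based table used here, because these genes include complexes whose subunits moved in opposite directions. Each window runs from 250 bases before to 50 bases after the start site (RefSeq, GRCh38.p14) and is read 5′ to 3′ on the gene's strand, with matches to an E2F motif or to CCAAT in either orientation in capitals. The windows are chr20:25407423-25407722 (+ strand) for GINS1, chr16:58392221-58392520 (+ strand) for GINS3, chr13:33817899-33818198 (+ strand) for RFC3 and chrX:24693668-24693967 (+ strand) for POLA1.
GINS1: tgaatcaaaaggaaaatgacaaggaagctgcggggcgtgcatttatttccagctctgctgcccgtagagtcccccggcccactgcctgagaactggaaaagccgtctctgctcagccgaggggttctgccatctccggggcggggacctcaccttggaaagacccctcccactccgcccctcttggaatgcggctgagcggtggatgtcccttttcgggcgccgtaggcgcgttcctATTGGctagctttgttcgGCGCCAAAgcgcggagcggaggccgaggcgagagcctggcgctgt
GINS3: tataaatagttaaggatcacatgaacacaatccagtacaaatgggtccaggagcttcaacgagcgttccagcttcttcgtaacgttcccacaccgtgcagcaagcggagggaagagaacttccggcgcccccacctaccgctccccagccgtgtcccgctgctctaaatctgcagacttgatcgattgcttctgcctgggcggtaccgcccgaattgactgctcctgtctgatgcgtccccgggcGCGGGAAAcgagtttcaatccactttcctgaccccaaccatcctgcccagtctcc
RFC3: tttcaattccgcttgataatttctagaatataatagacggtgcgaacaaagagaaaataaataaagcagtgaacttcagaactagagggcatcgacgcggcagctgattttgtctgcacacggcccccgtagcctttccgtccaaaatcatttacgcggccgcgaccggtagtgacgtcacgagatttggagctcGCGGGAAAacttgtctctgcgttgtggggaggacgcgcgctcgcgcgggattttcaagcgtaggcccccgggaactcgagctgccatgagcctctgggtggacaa
POLA1: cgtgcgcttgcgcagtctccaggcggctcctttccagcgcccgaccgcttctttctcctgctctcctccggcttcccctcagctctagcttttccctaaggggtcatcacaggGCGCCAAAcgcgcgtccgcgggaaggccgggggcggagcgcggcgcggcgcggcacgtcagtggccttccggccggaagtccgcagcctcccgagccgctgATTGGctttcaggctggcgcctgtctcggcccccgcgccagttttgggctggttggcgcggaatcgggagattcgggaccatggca
Each of the 4 windows held 1 E2F match. It began 5 bases before the start site in GINS3, 55 before it in RFC3 and 137 before it in POLA1, and lay just past the start site in GINS1. GINS1 and POLA1 also held a CCAAT match in the reverse orientation, 13 and 36 bases before the start site. Thus GINS1, whose RNA was higher, and GINS3, whose RNA was lower, held the same kind of match close to their start sites.

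The E2F letters searched were TTTGGCGC, TTTCCCGC, TTTCGCGC and TTTGCCGC on both strands. At least 1 of them was present in a window of 18 of the 35 replication genes that had a window (51.4%), against 3.31% of all 35116 windows and 3.99% of all genes with a window. CCAAT, the NF-Y motif, was present for 21 of 35 (60%), against 34.6% of windows and 39.7% of genes. TTTGAA, the CHR letters known from promoters of G2 and M phase genes, was present for 0 of 35, against 15.2% of windows and 18.2% of genes. MCM4, MCM5, GINS4, POLD3, RPA2 and RPA3 had no entry. A match says only that the letters are there.

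Most replication genes did not pass the threshold after depletion of lncRNA-IUR-5. Of the 41 genes, 7 were higher (MCM2, MCM4, MCM10, GINS1, RFC3, POLA1 and RPA2) and 4 were lower (GINS3, POLA2, POLD2 and RPA3) past the threshold. These 11 make 26.8% of the group. Among all 8873 genes tested 45.9% passed, with 22.4% higher and 23.5% lower. In this fit the share of replication genes that passed was therefore under the background. With scaling to total reads, or without sh-IUR-5 library 1, the share was over the background. The median log2 fold change was 0.11 over the 41 genes and -0.01 over all genes tested. The groups did not overlap for 15 of the 41 genes, against 54.3% of all genes. When RPKM was scaled to total reads only, 25 of the 41 passed, 22 higher and 3 lower, against 51.3% of all genes, 39.3% higher and 12% lower. All 11 genes kept their sign, although POLA2 no longer passed (-0.24, adjusted p = 0.0598). With a series term added to the fit 19 passed, 12 higher and 7 lower, against 56.4% of all genes. The 8 gained were MCM3, MCM6, RFC5, POLD3 and RPA1, which were higher, and GINS2, RFC4 and POLD1, which were lower, with adjusted p of 0.00372 to 0.0238. Within series 2 alone 18 passed, 13 higher and 5 lower, against 46.1%. In bulk RNA, a different share of cells in S phase and a different amount of RNA per cell cannot be told apart.

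**Figure D1:**
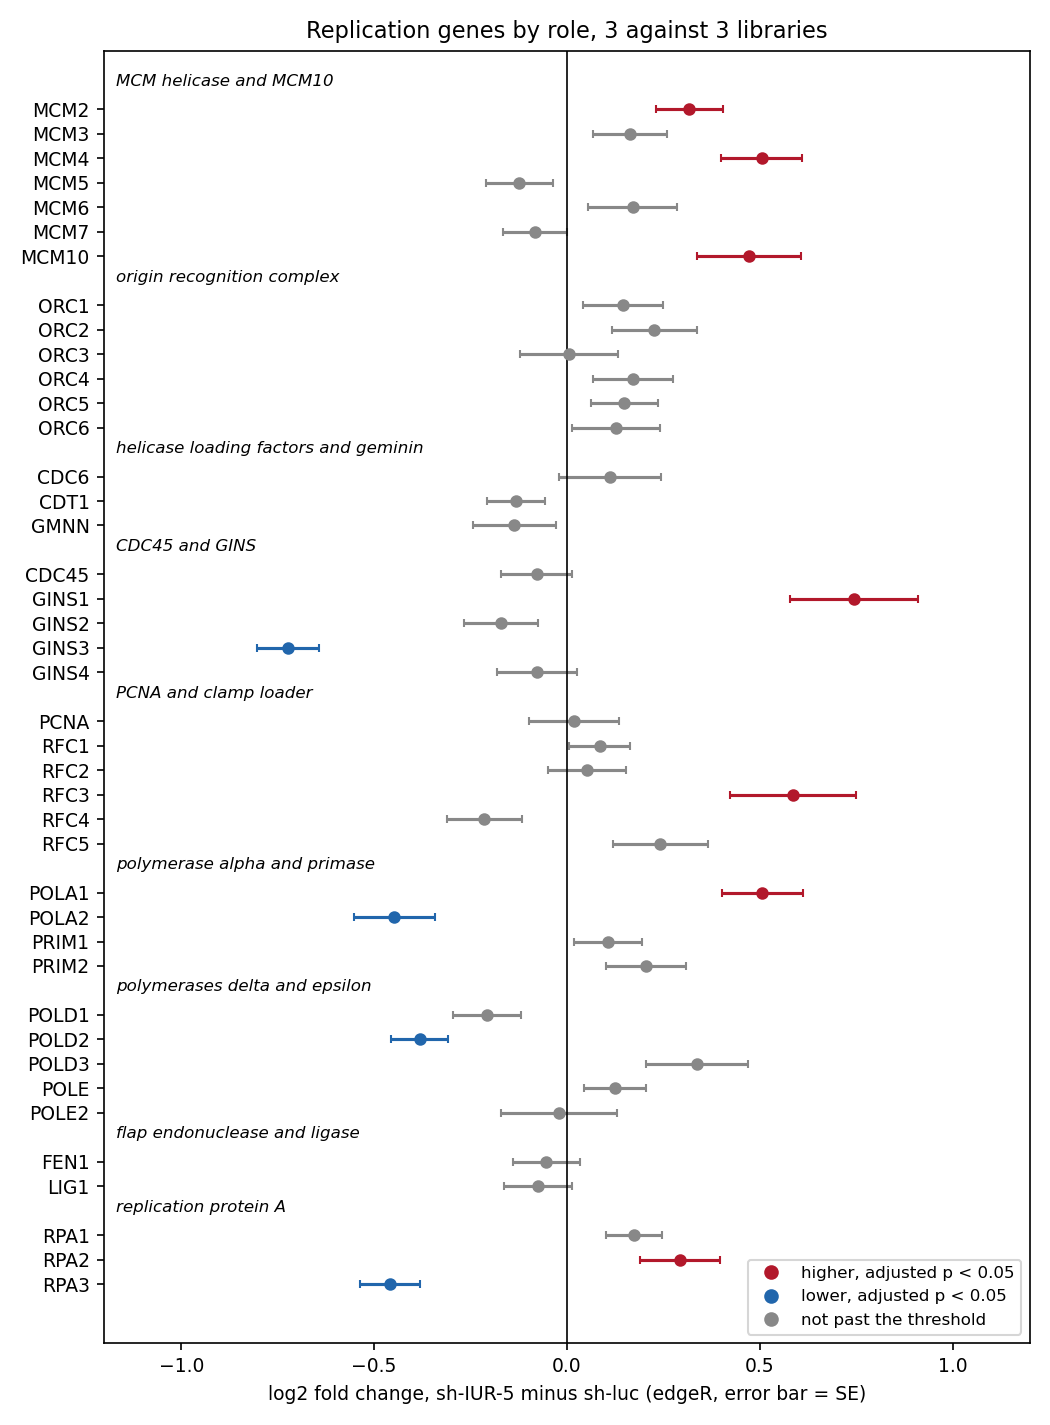
Log2 fold change (x axis, sh-IUR-5 over sh-luc) of the 41 replication genes (y axis), grouped by role, from 3 against 3 libraries. Error bars are SE derived from the edgeR test statistic. Red points are the 7 genes higher and blue points the 4 genes lower past the threshold, and GINS1 at 0.74 and GINS3 at -0.72 stand at the ends.

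The MCM ring had subunits that rose and subunits that did not pass. MCM2, the subunit known as a target of the DDK kinase and a histone binder, had levels of 58.7, 70.5 and 70.2 in sh-luc libraries 1, 2 and 3 and 74.1, 88.03 and 86.5 in sh-IUR-5 libraries 1, 2 and 3 (accession NP_004517.2, gene at chr3:127598411-127622436). Every sh-IUR-5 library lay above every sh-luc library (log2 fold change 0.32 ± 0.09 (SE), adjusted p = 0.00732). An unnamed gene on the opposite strand covers 15.2% of its coding bases in GENCODE. The other subunit that rose was MCM4, with 33.3, 40.4 and 39.2 in sh-luc libraries 1, 2 and 3 and 43.2, 57.2 and 60.02 in sh-IUR-5 libraries 1, 2 and 3 (accession NP_877423.1). The groups again did not overlap (log2 fold change 0.51 ± 0.11 (SE), adjusted p = 0.00103), and the 1.42-fold rise was the largest in the ring. MCM4 had a second row of the same length, 2592 bases, with almost the same number of reads (17636 against 17715), and it rose as well, by 0.44 on the log2 scale with an adjusted p of 0.00401.

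MCM3, MCM5, MCM6 and MCM7 did not pass the threshold, although MCM3 and MCM6 did with a series term in the fit. MCM3 had levels of 50.1, 61.7 and 59.8 in sh-luc libraries 1, 2 and 3 and 54.4, 68.5 and 69.4 in sh-IUR-5 libraries 1, 2 and 3 (log2 fold change 0.16 ± 0.10 (SE), adjusted p = 0.191). MCM6 had 86.8, 120.2 and 110.3 in sh-luc libraries 1, 2 and 3 and 95.4, 129 and 133 in sh-IUR-5 libraries 1, 2 and 3 (log2 fold change 0.17 ± 0.12 (SE), adjusted p = 0.259). In both genes library 1 was the lowest of its group, and the groups overlapped. With the series term MCM3 had 0.16 (adjusted p = 0.0156) and MCM6 had 0.17 (adjusted p = 0.0119).

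MCM5 had levels of 64.98, 72.8 and 79.5 in sh-luc libraries 1, 2 and 3 and 59.4, 71.6 and 68.5 in sh-IUR-5 libraries 1, 2 and 3 (log2 fold change -0.12 ± 0.09 (SE), adjusted p = 0.277). MCM7, the subunit with the most reads of all 41 genes, had 141, 156 and 164 in sh-luc libraries 1, 2 and 3 and 128, 157 and 149.8 in sh-IUR-5 libraries 1, 2 and 3 (log2 fold change -0.08 ± 0.08 (SE), adjusted p = 0.451). Both had negative fold changes, which turned to 0.08 and 0.12 with scaling to total reads. Beside its longest row, MCM7 had 2 shorter rows of 1632 bases that were lower past the threshold, with log2 fold changes of -0.34 and -0.32. With all 3 rows summed, MCM10, a factor that works with the helicase at initiation, averaged 17.9 RPKM in sh-luc. By its main row MCM10 had 4.51, 6.55 and 6.38 in sh-luc libraries 1, 2 and 3 and 6.54, 9.17 and 8.50 in sh-IUR-5 libraries 1, 2 and 3. It passed (log2 fold change 0.47 ± 0.14 (SE), adjusted p = 0.0105), although sh-luc library 2 and sh-IUR-5 library 1 were at nearly the same level (6.55 and 6.54). Without sh-luc library 1 or sh-IUR-5 library 2 it fell short, with adjusted p of 0.0625 and 0.0687.

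The 6 subunits enter the ring in equal numbers, but their transcript levels were unequal, and the order depended on how isoform rows were counted. By the row with the most reads, the sh-luc means were 154 RPKM for MCM7, 106 for MCM6, 72.5 for MCM5, 66.5 for MCM2, 57.2 for MCM3 and 37.7 for MCM4. MCM2 and MCM6 have 1 row, MCM3, MCM4 and MCM5 have 2 and MCM7 has 3. With the reads of all rows of a gene summed over the length of its main row, MCM7 stood highest, at 309.6 ± 21.2 RPKM in sh-luc (SD, n = 3), and MCM2 lowest, at 66.5 ± 6.73. Between them stood MCM5 at 119.9 ± 12.4, MCM3 at 108 ± 12.6, MCM6 at 106 ± 17.2 and MCM4 at 76.4 ± 8.67. The ranges of neighbours in this order overlapped from MCM5 to MCM6 and between MCM4 and MCM2, and not elsewhere. In sh-IUR-5 cells MCM4 averaged 106 ± 17.5 RPKM, MCM3 119.9 ± 17.3 and MCM2 82.9 ± 7.61.

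No ORC subunit passed the threshold, and all 6 log2 fold changes were positive, from 0.01 for ORC3 to 0.23 for ORC2. ORC5, the subunit with the most reads, had levels of 26.6, 27.8 and 26.5 in sh-luc libraries 1, 2 and 3 and 27.2, 29.8 and 32.7 in sh-IUR-5 libraries 1, 2 and 3 (log2 fold change 0.15 ± 0.09 (SE), adjusted p = 0.19). Its 2 shorter rows were higher past the threshold, with log2 fold changes of 0.38 and 0.59, and so was 1 row of ORC2. Levels of the main rows ran from 3.52 RPKM (sh-luc mean) for ORC3 to 30.7 for ORC6, the smallest subunit. With all rows of a gene summed, ORC3 had 27.9 and ORC6 38.8, and the sh-luc means ran from 15.7 for ORC2 to 41.95 for ORC1.

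The loading factors and geminin did not pass either. CDC6, the ATPase that bridges ORC and the MCM ring, had 14.8, 19.8 and 19.2 in sh-luc libraries 1, 2 and 3 and 14.7, 22.5 and 20.9 in sh-IUR-5 libraries 1, 2 and 3 (log2 fold change 0.11 ± 0.13 (SE), adjusted p = 0.54). CDT1, which brings the MCM ring to the origin, had 174, 172 and 196 in sh-luc libraries 1, 2 and 3 and 158, 176 and 161 in sh-IUR-5 libraries 1, 2 and 3 (log2 fold change -0.13 ± 0.08 (SE), adjusted p = 0.177). GMNN, the gene of geminin, had 39.7, 49.6 and 49.6 in sh-luc libraries 1, 2 and 3 and 36.1, 44.6 and 45.8 in sh-IUR-5 libraries 1, 2 and 3 (log2 fold change -0.14 ± 0.11 (SE), adjusted p = 0.334). In these 3 genes the groups overlapped, and CDC6 and GMNN were lowest in library 1 of both groups.

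The helicase activators held the largest rise and the largest fall of the 41 genes, in the same complex. GINS1 was a low gene, with levels of 3.65, 5.55 and 6.23 in sh-luc libraries 1, 2 and 3 and 8.01, 8.40 and 9.37 in sh-IUR-5 libraries 1, 2 and 3 (accession NP_066545.3, gene at chr20:25407673-25448563). It rose 1.68-fold without overlap (log2 fold change 0.74 ± 0.17 (SE), adjusted p = 0.00179), and its second row rose too, with 0.81 and an adjusted p of 0.00402. GINS3 had 66.8, 64.9 and 63.2 in sh-luc libraries 1, 2 and 3 and 37.1, 40.99 and 39.99 in sh-IUR-5 libraries 1, 2 and 3 (accession NP_001119601.1, gene at chr16:58392471-58406147), a fall in every library (log2 fold change -0.72 ± 0.08 (SE), adjusted p = 2.39e-06). The fall was in the main row of 768 bases with 5660 reads, while the other 2 rows, of 651 bases with 864 reads and of 417 bases with 386 reads, had log2 fold changes of 0.04 and 0.16 and adjusted p of 0.842 and 0.559. An unnamed gene on the opposite strand covers 24.3% of the GINS3 coding bases in GENCODE, and whether the counting used strand is not given in the sources used here. GINS2 and GINS4 had -0.17 ± 0.10 and -0.08 ± 0.10, and CDC45 had -0.08 ± 0.09, all short of the threshold.

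The clamp loader had 1 gene past the threshold. RFC3, a small subunit of the loader, had 4.16, 6.88 and 6.08 in sh-luc libraries 1, 2 and 3 and 7.09, 8.11 and 10.5 in sh-IUR-5 libraries 1, 2 and 3 (accession NP_002906.1, gene at chr13:33818149-33977377) and rose 1.501-fold (log2 fold change 0.59 ± 0.16 (SE), adjusted p = 0.00893). All 9 of its rows had positive fold changes, from 0.33 to 1.06, and 7 of them passed. Without sh-luc library 1 or sh-IUR-5 library 3 the main row fell short, with adjusted p of 0.0575 and 0.0579. RFC1, RFC2 and RFC5 had 0.09 ± 0.08, 0.05 ± 0.10 and 0.24 ± 0.12, and RFC4 had -0.21 ± 0.10. PCNA, the clamp itself, had 154, 207 and 194 in sh-luc libraries 1, 2 and 3 and 148, 206 and 208 in sh-IUR-5 libraries 1, 2 and 3. Its groups overlapped and their means were close (log2 fold change 0.02 ± 0.12 (SE), adjusted p = 0.921).

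In polymerase alpha the catalytic subunit and its partner went opposite ways. With all 6 rows summed, POLA1, the catalytic subunit, averaged 8.51 RPKM in sh-luc. By its main row POLA1 had 1.66, 1.79 and 1.94 in sh-luc libraries 1, 2 and 3 and 2.42, 2.55 and 2.71 in sh-IUR-5 libraries 1, 2 and 3 (accession NP_058633.2, gene at chrX:24693918-24996986). It rose 1.42-fold without overlap (log2 fold change 0.51 ± 0.11 (SE), adjusted p = 0.00106), as did 5 of its 6 rows. POLA2, the regulatory subunit, had 13.7, 13.6 and 15.5 in sh-luc libraries 1, 2 and 3 and 8.82, 11.6 and 11.03 in sh-IUR-5 libraries 1, 2 and 3 (accession NP_002680.2, gene at chr11:65261962-65305985), again without overlap (log2 fold change -0.45 ± 0.11 (SE), adjusted p = 0.00273). The other 3 rows of POLA2 had -0.10, 0.10 and 0.04, and with all rows summed the gene no longer passed (-0.17, adjusted p = 0.145). A same-strand gene without a symbol covers 83.2% of the POLA2 coding bases, so their reads cannot be told apart. The primase genes PRIM1 and PRIM2 had 0.11 ± 0.09 and 0.21 ± 0.10.

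Of the polymerase delta and epsilon genes, POLD2, the subunit that links the catalytic core of delta to its other parts, was lower. Its levels were 55.2, 55.4 and 57.8 in sh-luc libraries 1, 2 and 3 and 42.3, 45.1 and 41.7 in sh-IUR-5 libraries 1, 2 and 3 (accession NP_006221.2, gene at chr7:44114680-44124325). The groups were far apart relative to their spread (log2 fold change -0.38 ± 0.07 (SE), adjusted p = 0.00059), and all 3 rows of the gene fell, by 0.38 to 0.42 on the log2 scale. POLD1, the catalytic subunit, had -0.21 ± 0.09 (adjusted p = 0.0706), POLD3 had 0.34 ± 0.13 (adjusted p = 0.0514), and POLE and POLE2 had 0.12 ± 0.08 and -0.02 ± 0.15.

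The flap endonuclease and the ligase did not pass. FEN1 had 76.9, 90.4 and 88.9 in sh-luc libraries 1, 2 and 3 and 72.8, 87.2 and 86.98 in sh-IUR-5 libraries 1, 2 and 3 (log2 fold change -0.05 ± 0.09 (SE), adjusted p = 0.663), and LIG1 had -0.08 ± 0.09.

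In RPA the middle subunit rose and the small subunit fell. RPA2 had 40.5, 51.5 and 49.4 in sh-luc libraries 1, 2 and 3 and 49.7, 61.96 and 61.6 in sh-IUR-5 libraries 1, 2 and 3 (accession NP_002937.1, gene at chr1:27891524-27914797). It passed (log2 fold change 0.29 ± 0.10 (SE), adjusted p = 0.0317), with sh-IUR-5 library 1 inside the range of sh-luc, and its other 2 rows had 0.14 and 0.12. The call was lost without any of 4 of the libraries, sh-luc 1 or 3 and sh-IUR-5 2 or 3, with adjusted p up to 0.162. It was also lost by DESeq2 (adjusted p = 0.052), with no minimum RPKM (0.0522) and with rows summed (0.124). RPA3, a gene with 1 row, had 356, 375 and 363 in sh-luc libraries 1, 2 and 3 and 242, 269 and 286 in sh-IUR-5 libraries 1, 2 and 3 (accession NP_002938.1, gene at chr7:7636518-7718607). It fell to 0.73 of the sh-luc level in libraries that did not overlap (log2 fold change -0.46 ± 0.08 (SE), adjusted p = 0.00017). RPA1, the large subunit that binds DNA, had 0.17 ± 0.07 (adjusted p = 0.0688).

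**Figure D2:**
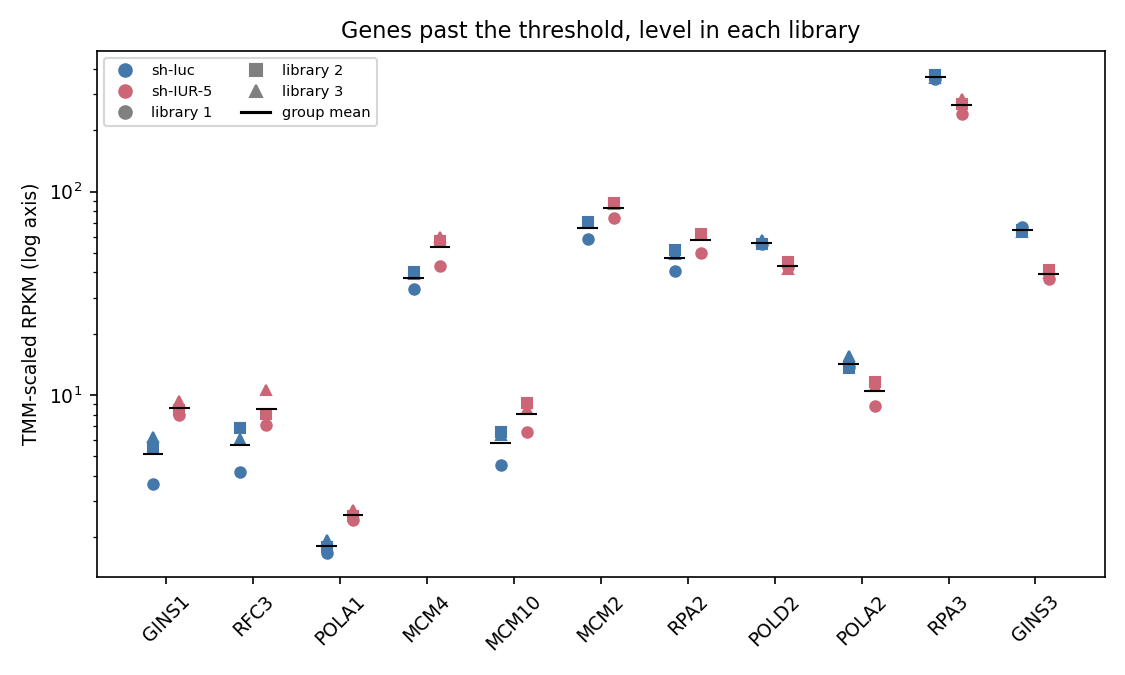
TMM-scaled RPKM (y axis, log scale) of the 11 genes past the threshold (x axis) in each sh-luc and sh-IUR-5 library, with the group means as bars. The groups are apart in 9 of the 11 genes and touch in MCM10 and RPA2, and library 1 is the lowest of both groups in the 7 genes that rose.

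A ratio of 2 genes within a library does not depend on how libraries are scaled. The log2 ratio of GINS1 to GINS3 was -4.19, -3.55 and -3.34 in sh-luc libraries 1, 2 and 3 and -2.21, -2.29 and -2.09 in sh-IUR-5 libraries. It was 1.497 higher after depletion, or 1.37 with all rows of each gene summed. The log2 ratio of POLA1 to POLA2 averaged -2.99 ± 0.06 (SD, n = 3) in sh-luc and -2.03 ± 0.16 in sh-IUR-5, and the difference of 0.96 was 0.64 with rows summed. That of RPA2 to RPA3 averaged -2.96 ± 0.15 and -2.21 ± 0.08, and the difference of 0.76 was 0.66 with rows summed. The 6 libraries separated by group in each of the 3 ratios, by either way of counting. These pairs were taken because their genes had passed in opposite directions, so the separation is a description.

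**Figure D3:**
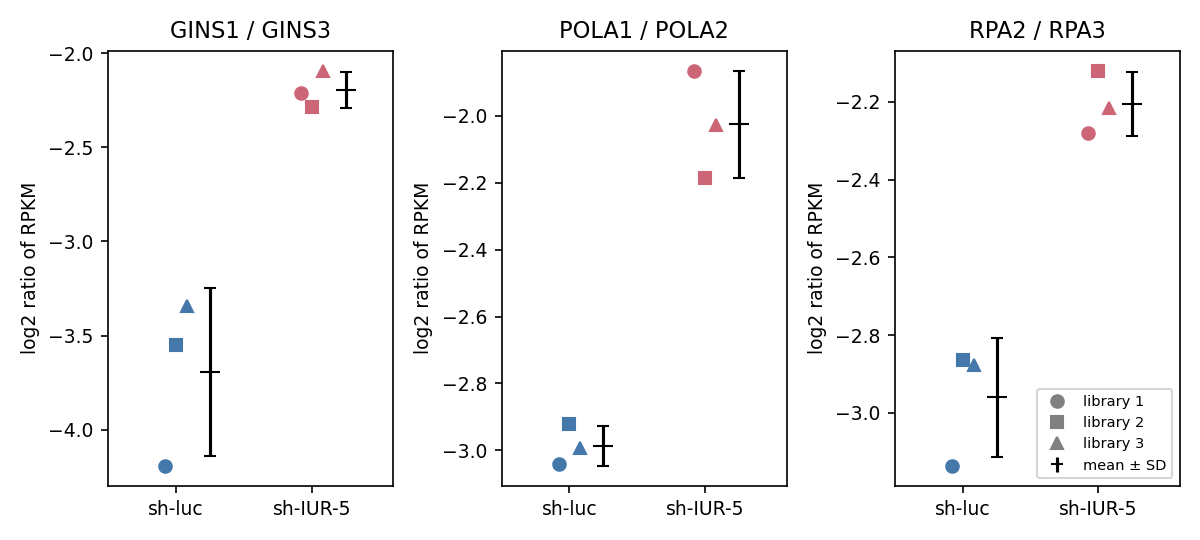
Log2 ratio of the RPKM of 2 subunits (y axis) in each library of sh-luc and sh-IUR-5 cells, for GINS1 to GINS3, POLA1 to POLA2 and RPA2 to RPA3, with mean ± SD beside the points. Each panel has its own scale, and the differences between group means are 1.497, 0.96 and 0.76.

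The isoform rows gave a similar count. Of the 138 rows of the 41 genes, all of which were tested, 36 passed (26.1%), 26 higher and 10 lower, against 37.3% of all rows. With the rows of each gene summed, 15 of the 41 genes passed, 11 higher and 4 lower, against 49.7% of all genes, 26.5% higher and 23.2% lower. ORC2, ORC5, PRIM2, POLE and RPA1 then joined the genes that were higher and POLD1 those that were lower, and RPA2 and POLA2 left them.

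The replication genes also differed between the series in the library names. In a model that held both series and hairpin, 22 of the 41 genes (53.7%) passed for series 2 against series 1, all of them higher in series 2, and 19 passed for the hairpin. Among all genes tested 12.3% passed for the series and 6.71% were higher in series 2. The series effect was positive in 39 of the 41 genes, with a median of 0.24 on the log2 scale, against -0.002 over all genes. ORC2 and RPA1 were the 2 exceptions. Library 1 lay below libraries 2 and 3 of its own group, in both groups, for 29 of the 41 genes, against 21.7% of all genes.

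**Figure D4:**
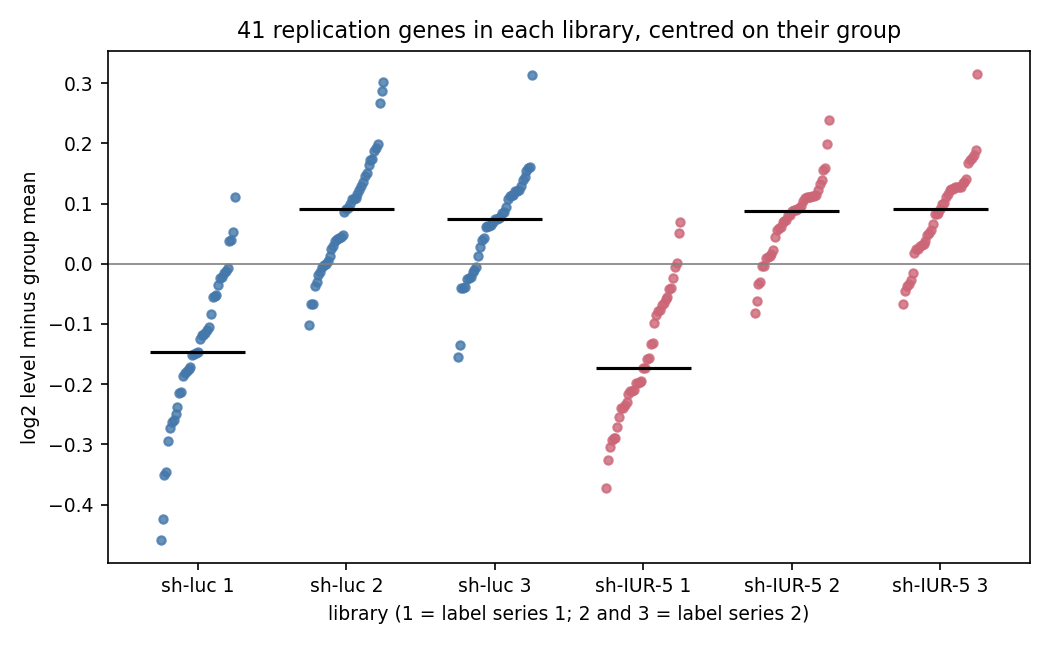
Log2 level of each of the 41 replication genes in a library minus the mean of its group (y axis), for the 6 libraries (x axis), with the median as a bar. The medians of library 1 lie at -0.15 in sh-luc and -0.17 in sh-IUR-5, and those of the other 4 libraries between 0.07 and 0.09.

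By role, all 7 of the MCM2 to MCM7 and MCM10 genes passed for the series, as did 5 of the 6 PCNA and clamp loader genes, 2 of the 3 loading factors and geminin, and 2 of the 6 ORC genes. The largest effects were in CDC6 (0.48 ± 0.07, adjusted p = 2.1e-05), RFC3 (0.48 ± 0.12, adjusted p = 0.0058) and POLE2 (0.47 ± 0.11, adjusted p = 0.00396). MCM6 and PCNA each had 0.43 ± 0.06, with adjusted p of 5.95e-06 for PCNA and 4.24e-06 for MCM6, so the clamp was 1.35-fold higher in series 2 while it did not pass between the hairpins. Genes that did not pass for the series included CDT1 (0.09 ± 0.06), POLD2 (0.04 ± 0.06), POLE (0.03 ± 0.07) and GINS3 (0.03 ± 0.07). MCM2, MCM4, MCM10, RFC3 and RPA2 passed for both the hairpin and the series.

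The direction held with each library left out in turn, in that every gene that passed was higher in series 2. The count was 22 without sh-luc library 2, where 7.91% of all genes passed, and 23 without sh-luc library 3, where 16.5% did. It was 14 without sh-IUR-5 library 2 and 17 without sh-IUR-5 library 3, against 6.78% and 7.55% of all genes. Leaving out either library 1 left series 1 with 1 library, so the median series effect of the replication genes is given instead. That median was 0.26 without sh-luc library 1 and 0.21 without sh-IUR-5 library 1. Without sh-IUR-5 library 1, 20 genes passed for the hairpin in the fit with no series term, 16 higher and 4 lower. Of all genes 45.3% passed there, 21.6% higher and 23.7% lower. With trends on coding GC content and length removed, 23 genes passed for the series, against 13.8% of all genes. The 18 genes with an E2F match had a median series effect of 0.31 and the 17 without one of 0.21, and 10 and 9 of them passed. Of the G2 and M phase genes 2 of 20 passed for the series, both higher in series 2, with a median of 0.06. The erythroid markers went the other way in series 2, with 5 of 12 lower and 0 higher, against 498 of 8873 genes lower. Their median was -0.18. Their part in the result was not tested.

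Other genes of the pathway were read from a list of their own. Of 36 other replication genes, 20 passed (55.6%), 12 higher and 8 lower, with a median of 0.15, while 45.9% of all genes passed, 22.4% higher and 23.5% lower. After trends on GC and length were removed 9 of the 20 no longer passed. The largest changes were in RFWD3, a ubiquitin ligase that acts on RPA, at 0.86 ± 0.13, and in DTL, the adaptor that targets CDT1 for destruction, at 0.85 ± 0.15. DTL had levels of 3.14, 4.19 and 5.09 RPKM with sh-luc and of 5.99, 8.01 and 8.46 with sh-IUR-5, while CDT1 RNA itself did not pass. MCM8, a helicase of homologous recombination and not of the licensing ring, fell by 0.68 on the log2 scale with an SE of 0.09. CDC7, the kinase that phosphorylates the MCM ring, rose by 0.64 ± 0.12.

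Of 13 E2F, DP and RB family genes 12 were tested, and 7 passed (58.3%), all of them higher, against 45.9% of all genes that passed and 22.4% that were higher. RB1, RBL2 and RBL1 code for the pocket proteins that restrain E2F, and had 0.87 ± 0.11, 0.86 ± 0.11 and 0.61 ± 0.18. RBL1 no longer passed after trends on GC and length were removed (0.37, adjusted p = 0.117). E2F3, an activating family member, had 0.69 ± 0.17. RB1 had 2.60, 2.30 and 2.77 RPKM with sh-luc and 4.67, 4.45 and 4.87 with sh-IUR-5, without overlap. The count of 7 was 3 without sh-luc library 1 and 4 without sh-IUR-5 library 2. These counts were not set against the share of all genes in the same fits. Of 20 G2 and M phase genes 10 passed (50%), 8 higher and 2 lower. Of all genes 45.9% passed, a share near this, with 22.4% higher and 23.5% lower. After trends on GC and length were removed 3 of the 10 no longer passed. NUSAP1, a spindle protein, had 0.46 ± 0.10, CCNA2, the gene of cyclin A2, had 0.45 ± 0.07, the spindle motor KIF11 had 0.43 ± 0.09 and the checkpoint kinase TTK had 0.40 ± 0.08.

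Coding GC content ran from 36.8% in ORC4 to 68.3% in CDT1. Across the 41 genes, which share the same libraries, its Pearson correlation with the log2 fold change was -0.33, and across 8766 genes it was -0.24. After each library's trends on GC and length were removed, 10 of the 41 genes passed, 5 higher and 5 lower, against 42% of all genes, 20.9% higher and 21.1% lower, and the median log2 fold change of the 41 was 0.00. MCM10 and POLA1 then fell short (0.29 and 0.23, adjusted p = 0.136 and 0.0709), RFC4 passed as lower (-0.32, adjusted p = 0.00688), and the other 9 of the 11 passed in the same direction.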

How the data were processed

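The authors trimmed the reads and mapped them to hg38, and the submitters' processing notes name CASAVA 1.8, Trimmomatic 0.32, Bowtie2 2.1.0 and SAMtools 0.1.19. The authors deposited read counts per RefSeq protein accession, without normalization, together with RPKM, found equal to reads over row length and library total in a check. How reads that match several isoforms were assigned is not given in the sources used here, so rows of a gene can share or split reads. The authors' own comparison (pooled values, fold, p and q) was not used. Symbols were matched by accession (64.7% of 109018 rows) to the GRCh38.p14 RefSeq list.

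Read counts were tested with edgeR 4.0.16 in R 4.3.3 (TMM, quasi-likelihood, two-sided, Benjamini-Hochberg, threshold 0.05) on rows with a mean RPKM of at least 1, 3 sh-IUR-5 against 3 sh-luc libraries. Levels are RPKM over each library's TMM divisor (0.929 to 1.1), and SD is over libraries. SE is the absolute log2 fold change divided by the square root of edgeR's F statistic. The biological coefficient of variation was 8.05%. Series and group were tested in 1 model, chosen after the data were seen. The scripts were tested on simulated data. DESeq2 1.42.0, GC and length trends (mgcv 1.9.3, coding sequence of GENCODE release 44, 98.8% of genes), other scalings, minimum levels, row choices and left-out libraries were alternatives. Values per library are given for genes past the threshold, MCM2 to MCM7, CDC6, CDT1, GMNN, PCNA and the gene with the most reads of each remaining role, and of each other list for the 4 genes with the largest change past the threshold by fold, some also by library. The 41 genes, the lists and the tests were chosen with earlier results of these data known.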

Additional observations from a re-analysis of the deposited data

How the results depend on the processing

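The 41 genes gave 11 calls, where 45.9% of all genes passed. Counts below without a share of all genes beside them were not set against a background, so they describe only how the calls moved. No same-numbered pairing is stated in the labels, and deviations of same-numbered libraries from their group means correlated by 0.31, 0.088 and -0.013, so the numbers were not taken to pair the libraries. With a replicate block 19 genes passed, 12 higher and 7 lower. The series term also gave 19, 12 and 7, where 56.4% of all genes passed. With a minimum mean RPKM of 5, 19 of the 36 genes left passed, 15 higher, and the median was 0.21. E2F, DP and RB calls were then 2, because RB1, RBL1, RBL2, E2F3, E2F8 and TFDP1, which had passed, lay under that minimum. With no minimum 7 were lower and the median was 0.054. Total-read scaling gave 25, 22 higher, against 51.3% and 39.3% of all genes, and a median of 0.31. Series 2 alone gave 18, 13 higher, where 46.1% of all genes passed, and a median of 0.16. Summed rows gave 11 higher, against 26.5% of all genes. Requiring 1.5-fold left 3. With GC and length trends removed the median was -0.00025, and with the replicate block added it was 6.8e-05 with 9 genes lower. Leaving out each library gave 9 to 20 genes (4 to 16 higher, 4 to 5 lower), a median of 0.041 to 0.17, 3 to 7 E2F, DP and RB genes, and 6 to 23 genes for the series (the count of 20 was without sh-IUR-5 library 1, which left 16 higher). The causes were not tested.

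Of the 11 called genes only GINS3 changed sign, at its second row (0.042). The other sign changes were in genes that had not passed. Total-read scaling gave GINS2 0.032, GMNN 0.068, CDT1 0.074, MCM5 0.080, MCM7 0.12, CDC45 0.13, GINS4 0.13, LIG1 0.13, FEN1 0.15 and POLE2 0.19. The minimum of 5 gave MCM7 0.030, CDC45 0.035, GINS4 0.038, LIG1 0.039 and FEN1 0.060, and no minimum gave RFC2 -0.0013, PCNA -0.035 and ORC3 -0.049. With GC and length trends removed PCNA was -0.00019, ORC1 -0.00025, PRIM1 -0.011, MCM6 -0.034, CDC6 -0.060, RFC1 -0.17, ORC3 -0.19 and FEN1 0.010, and with the replicate block added PCNA was -0.0026, PRIM1 -0.013, MCM6 -0.036, CDC6 -0.065, RFC1 -0.17, ORC3 -0.18, FEN1 0.010 and GINS4 6.8e-05. ORC3 was -0.00055 by DESeq2, -0.0024 with its size factors and -0.0032 in series 2 alone. POLE2 was 0.0022 with 1 row per gene and 0.015 with summed rows, which gave RFC2 -0.053. The second row gave RFC2 -0.051 and MCM5 0.040. Leaving out each library gave -0.15 to 0.0017 for MCM7, -0.14 to 0.025 for CDC45, -0.12 to 0.032 for FEN1, -0.18 to 0.13 for POLE2, -0.020 to 0.16 for RFC2, -0.012 to 0.28 for CDC6, -0.11 to 0.11 for ORC3, -0.098 to 0.17 for PCNA and -0.14 to 0.0061 for GINS4. GINS1, with 621 reads, is the least precise of the called genes.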

Other observations

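Among the other replication genes, all 3 subunits of RNase H2, the enzyme that removes ribonucleotides from DNA, were lower in sh-IUR-5 cells. They were chosen after their values were seen. RNASEH2A averaged 109 ± 4.13 RPKM in sh-luc and 87.4 ± 2.30 in sh-IUR-5 (SD, n = 3), RNASEH2B 21.6 ± 2.07 and 14.1 ± 2.02, and RNASEH2C 111 ± 0.497 and 80.2 ± 5.85. Their edgeR adjusted p were 0.00231, 0.000272 and 0.000218. The small accessory polymerase subunits POLE4 and POLD4 were lower as well, with log2 fold changes of -0.52 and -0.47 and edgeR adjusted p of 0.000129 and 0.0184. POLE3, the partner of POLE4, had 0.24 ± 0.11 (SE, edgeR adjusted p = 0.0855), and was higher past the threshold with the series term (edgeR adjusted p = 0.00578). After trends on GC and length were removed RNASEH2A and RNASEH2B still passed (edgeR adjusted p = 0.0258 and 0.000294), and RNASEH2C, POLE4 and POLD4 did not (edgeR adjusted p = 0.132, 0.0855 and 0.801). With total-read scaling RNASEH2A and POLD4 did not pass (edgeR adjusted p = 0.204 and 0.2).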
